A study of Mus musculus with 10 samples.

Results

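Sense-intronic transcripts are noncoding transcripts that the GENCODE annotation places inside an intron of another gene, on the same strand and without sharing its exons. Of 327 such genes annotated on the mouse genome build GRCm38, 321 were present in the count data, and 74 of these had more than 1 CPM, the count scaled to the library's total over all genes and expressed per 1000000, in at least 2 of 10 libraries. These 74 transcripts are described here beside the protein-coding host gene whose intron holds each of them. A host was found for 72 of the 74, in 59 distinct genes. The remaining transcripts, Gm26575 and Gm45311, had none, and 62.1% of the annotated length of Gm45311 overlapped exons of other genes.

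The libraries were made from male MC-TRAP mice (Drd2-Cre;Eef1a1LSL.eGFPL10a/+ on C57BL/6) of about 10 weeks of age, in which Cre activity from the Drd2 promoter turns on an EGFP-tagged ribosomal protein L10a. Translating ribosome affinity purification (TRAP) pulled down tagged ribosomes with their RNA from the dorsal part (Dorsal, n = 5) or the remaining ventral part (Ventral, n = 5) of the hippocampus, and each library came from the pooled tissue of 5 mice, so that a replicate is a pool. The methods name mice for 5 such pools, with each hippocampus divided into both parts, so that the Dorsal and Ventral libraries appear to draw on the same mice; which libraries share a pool is not given in the sources used here. Both groups carry the same genotype, and no library from unbound RNA was analysed here. Drd2-Cre labels hilar mossy cells, the glutamatergic relay neurons of the dentate hilus, and also sparse interneurons. Of the 8 mossy cell markers listed, 3 were higher in Dorsal and 2 higher in Ventral libraries by the test described below. That test called 15.7% of all tested genes in the dorsal and 9.85% in the ventral direction. Gria2 was at 1150 ± 96.1 CPM (SD, n = 5) in Dorsal and 645 ± 55.6 CPM in Ventral libraries. Satb1, at 270 ± 22.4 and 447 ± 24.6 CPM, and Calb2, at 65.1 ± 7.22 and 611 ± 83.2 CPM, went the other way. Calcrl was at 7.49 ± 7.8 and 8.21 ± 2.64 CPM. The interneuron marker Gad2 stood at 2850 ± 376 and 3150 ± 336 CPM, so that RNA of markers listed for both kinds of neuron was counted.

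An intron is removed from the primary transcript in the nucleus and is normally degraded there, whereas the spliced mRNA is exported and loaded with ribosomes. A transcript annotated within an intron may be an independent gene with its own promoter and polyadenylation site, or a stretch of unspliced or partly spliced host RNA that was once cloned as a cDNA. In brain, such introns can be very long, and long noncoding RNAs are largely kept in the nucleus. Setting each intronic transcript beside its host asks whether both differed alike between the dorsal and the ventral pull-downs.

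The annotated 3′ ends are described for the transcripts with the highest levels and for those with the largest separated dorsal difference. They belong to the annotated models and do not show which RNA gave the counts. An independent polyadenylated RNA usually carries the hexamer AATAAA, or its variant ATTAAA, shortly before its end. The last 60 bases of the longest annotated transcript are printed 5′ to 3′ on the transcribed strand (GENCODE M21 transcripts of GRCm38), and capitals mark either hexamer within the last 50 bases. The 6 transcripts with the highest mean CPM are Peg13 (minus strand, chr15:72805600-72805659), B930095G15Rik (plus strand, chr14:121253912-121253971), Gm42829 (plus strand, chr5:122411015-122411074), Gm29170 (plus strand, chr1:143781248-143781307), Gm42664 (minus strand, chr3:119743208-119743267) and Gm38190 (minus strand, chr1:165230371-165230430).
Peg13: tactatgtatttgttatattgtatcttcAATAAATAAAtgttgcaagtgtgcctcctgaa
B930095G15Rik: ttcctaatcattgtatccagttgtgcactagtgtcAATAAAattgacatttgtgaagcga
Gm42829: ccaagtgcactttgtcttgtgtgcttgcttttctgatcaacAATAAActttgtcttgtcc
Gm29170: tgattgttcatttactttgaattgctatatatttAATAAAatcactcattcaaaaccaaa
Gm42664: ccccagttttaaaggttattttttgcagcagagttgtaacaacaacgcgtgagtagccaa
Gm38190: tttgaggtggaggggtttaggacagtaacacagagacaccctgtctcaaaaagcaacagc
Of these, the first 4 carry AATAAA, which in Peg13 is present as 2 overlapping copies, and the last copy starts 19 to 28 bases from the annotated end; the last 2 carry neither hexamer in the window. Of the 6 transcripts with the largest dorsal difference among those whose Dorsal and Ventral libraries did not overlap, 5 are shown: A530041M06Rik (minus strand, chr3:104499320-104499379), Gm10855 (minus strand, chr2:6932541-6932600), Gm42702 (minus strand, chr3:104135785-104135844), Gm13380 (minus strand, chr2:20921860-20921919) and Gm43166 (minus strand, chr5:131130021-131130080).
A530041M06Rik: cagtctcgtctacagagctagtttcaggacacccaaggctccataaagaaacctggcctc
Gm10855: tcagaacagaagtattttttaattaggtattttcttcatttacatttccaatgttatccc
Gm42702: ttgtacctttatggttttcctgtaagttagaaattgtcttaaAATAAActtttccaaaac
Gm13380: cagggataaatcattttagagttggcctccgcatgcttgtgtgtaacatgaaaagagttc
Gm43166: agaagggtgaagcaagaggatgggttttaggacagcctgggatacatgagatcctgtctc
Among these, Gm42702 holds a hexamer within the last 50 bases and the other 4 do not. Over all 74 transcripts, 23 (31.1%) had a hexamer in that window, against 69 of the 253 other sense-intronic genes of the annotation (27.3%), 931 of 3219 genes of the provisional class TEC (28.9%) and 2402 of 5854 lincRNAs (41.0%). A hexamer match is a description of these letters and does not show that the site is used.

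The 74 transcripts were mostly unspliced models inside long introns. A single exon block was annotated for 46 of the 74 (62.2%), against 103 of the 253 other sense-intronic genes (40.7%). Their longest annotated transcripts had a median length of 2197 bases, against 746 bases in the other sense-intronic genes, and a median GC content of 40.7% against 45.1%. The host introns ranged from 2195 to 1244595 bp with a median of 26400 bp, and 14 of the 72 lay in the first intron of the host. Longer models collect more counts at the same molar level, so that the length difference is in part what a CPM minimum selects.

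Depth ranged from 11138676 to 20594364 counts on genes per library, at which 3 counts correspond to 0.146 to 0.269 CPM; these limits cover counting error only. The share of read pairs on no annotated gene was 27.0 ± 5.08% in Dorsal and 14.3 ± 2.99% in Ventral libraries, with no overlap (two-sided p = 0.00794 by exact permutation of the group labels, the lowest value 5 against 5 can give). Replicates 4 and 5 of both groups lay between the other libraries of their group. In Dorsal 4 and Dorsal 5, 84.2% and 84.4% of all tested genes fell strictly within the range of the other 4 libraries, and in Ventral 4 and Ventral 5 79.7% and 73.0%, against 37.0 to 46.3% in Dorsal 1 to 3 and 40.3 to 52.6% in Ventral 1 to 3. Libraries that varied independently would give 60% each. For the 74 transcripts the shares were 95.9% in Dorsal 4, 87.8% in Dorsal 5, 64.9% in Ventral 4 and 68.9% in Ventral 5. The 60% does not apply to them in Ventral libraries, where 44 to 60 of the 74 had a count and tied zeros lower the share. In Dorsal 1 to 3 the shares of the 74 were 28.4 to 48.6% and in Ventral 1 to 3 18.9 to 33.8%, below those of replicates 4 and 5. The labels give no reason for this, and p-values that count all 10 libraries as independent may be too small. Counts of calls are therefore given also without replicates 4 and 5.

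**Figure D1:**
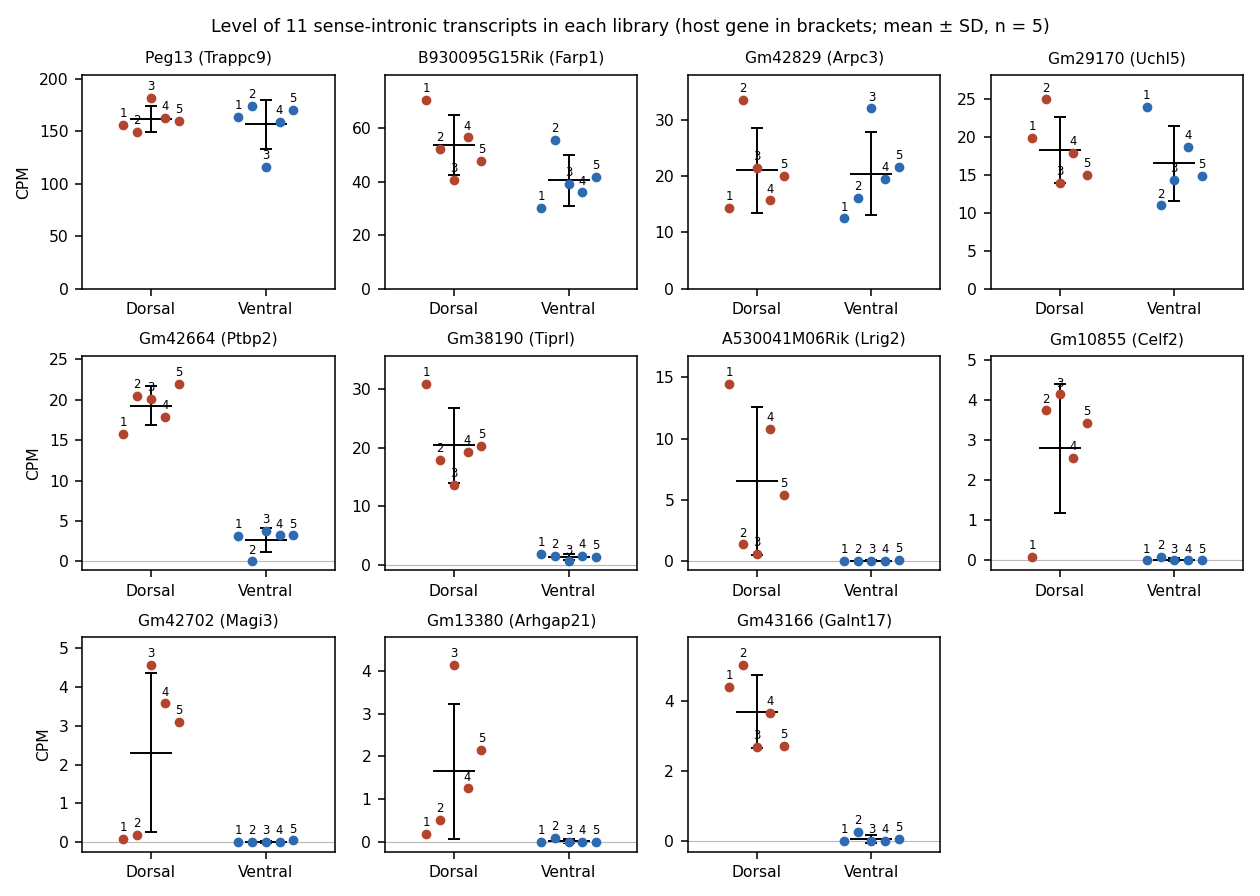
CPM (y axis, linear from 0) of the 6 most abundant sense-intronic transcripts and of 5 of the 6 with the largest non-overlapping dorsal difference in each Dorsal (red) and Ventral (blue) library; digits are replicate numbers, and bars give the mean ± SD (n = 5). Peg13 lay between 116 and 182 CPM in both groups, whereas A530041M06Rik ranged from 0.58 to 14.5 CPM in Dorsal and from 0 to 0.0971 CPM in Ventral libraries.

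The most abundant transcript was Peg13, an imprinted noncoding RNA expressed from the paternal allele, which lies within intron 20 of Trappc9, a gene for a subunit of the TRAPP vesicle-trafficking complexes. Peg13 was at 156, 149, 182, 163 and 160 CPM in Dorsal 1 to 5 and at 164, 174, 116, 159 and 170 CPM in Ventral 1 to 5. The groups overlapped throughout, and the log2 fold change of Dorsal over Ventral was 0.03 ± 0.11 (SE; edgeR quasi-likelihood test, adjusted p = 0.847). Trappc9 itself had 21.2 ± 5.35 CPM (Dorsal) and 22.1 ± 3.73 CPM (Ventral; log2 fold change -0.07 ± 0.18). Per kilobase of exon, Peg13 stood at 1240% of the level of its host over all libraries, and 3 other transcripts also exceeded their host on this scale.

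The next 3 transcripts in level also did not pass the test. B930095G15Rik, in intron 14 of Farp1, a FERM-domain guanine nucleotide exchange factor of dendrites, had means of 53.6 ± 11.1 CPM (Dorsal) and 40.5 ± 9.43 CPM (Ventral; log2 fold change 0.41 ± 0.19, adjusted p = 0.107). Gm42829, in the last intron of Arpc3, which encodes a subunit of the actin-nucleating Arp2/3 complex, had 21 ± 7.58 and 20.4 ± 7.38 CPM (0.07 ± 0.27, adjusted p = 0.873). Gm29170, in the first intron of Uchl5, a deubiquitinase of the proteasome, had 18.4 ± 4.39 and 16.6 ± 4.96 CPM (0.11 ± 0.23, adjusted p = 0.737), and 3.68% of its length overlapped exons of another gene. In all 3 the lowest Dorsal library was below the highest Ventral library. These 3, with Peg13, are the abundant transcripts that carry AATAAA near the annotated end.

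The fifth and the sixth in level were higher in all Dorsal libraries. Gm42664, a single block in intron 9 of Ptbp2, a neuronal regulator of splicing, was at 15.8, 20.5, 20.1, 17.9 and 22 CPM in Dorsal 1 to 5 and at 3.15, 0, 3.74, 3.22 and 3.20 CPM in Ventral 1 to 5. It was called dorsal-enriched with a log2 fold change of 2.77 ± 0.29 (adjusted p = 3.25e-05), and without a count in Ventral 2, where 3 counts would be 0.258 CPM. Gm38190, in intron 2 of Tiprl, a regulator of PP2A-type phosphatases, was at 30.9, 17.9, 13.6, 19.3 and 20.3 CPM in Dorsal and at 1.81, 1.46, 0.569, 1.51 and 1.31 CPM in Ventral libraries (3.85 ± 0.34, adjusted p = 1.03e-05). Their hosts did not pass the test. Ptbp2 had a log2 fold change of -0.16 ± 0.13 and Tiprl of -0.27 ± 0.11, with adjusted p of 0.379 and 0.0753. With offsets for GC content and length Ptbp2 was ventral-enriched (-0.93, adjusted p = 0.000243), and Tiprl, at -0.39 with an adjusted p of 0.0101, stayed under the fold threshold.

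**Figure D2:**
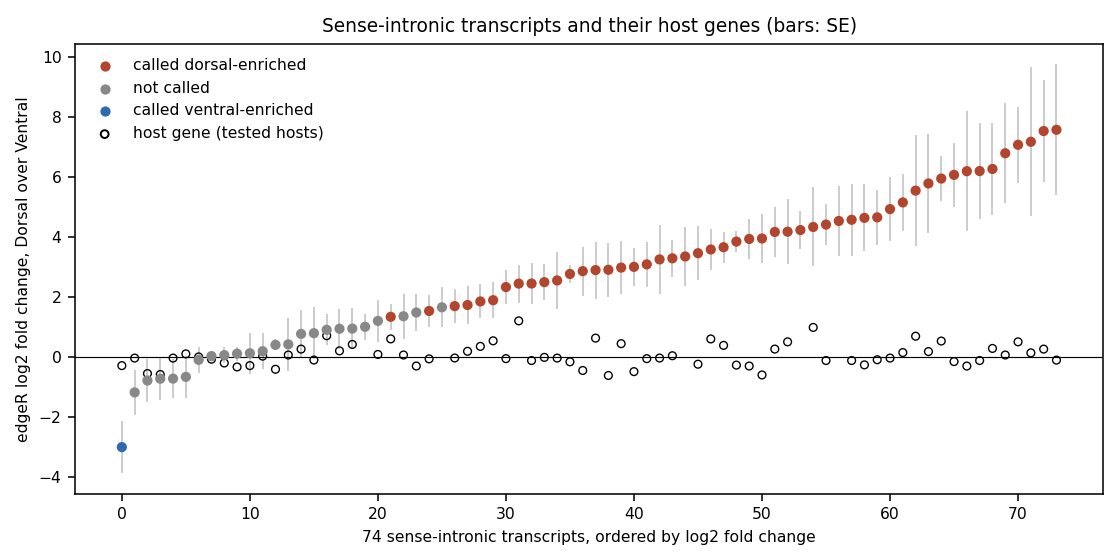
edgeR log2 fold change of Dorsal over Ventral (y axis) for the 74 sense-intronic transcripts in order of that value (x axis), with bars of 1 SE; red marks dorsal-enriched, blue ventral-enriched and grey uncalled transcripts, and open circles give the tested host of each. The transcripts spread from -3.01 to 7.59 while their hosts stayed between -0.62 and 1.21. The highest value is that of Gm43773, which had no Ventral count and an SE of 2.19. The transcripts had few counts, with a median level of 1.09 CPM.

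Across the whole set, the edgeR quasi-likelihood test called 50 of the 74 transcripts (67.6%) dorsal-enriched and 1 (1.35%) ventral-enriched, where a call needed an adjusted p under 0.05 together with a log2 ratio of the group means (CPM plus 1) beyond 0.58 in size. In the same fit 15.7% of all 16806 tested genes were called in the dorsal and 9.85% in the ventral direction. The log2 fold change was above 0 in 67 of the 74, against 49.6% of all tested genes, and its median was 2.89, against -0.0044 over all tested genes. In 21 of the 74 (28.4%) every Dorsal library was above every Ventral library, which held for 10.3% of all tested genes, and in none was every Ventral library above every Dorsal library (7.70% of all tested genes). Fewer cells of a type and less RNA per cell cannot be told apart in such pooled pull-downs.

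These counts are partly built into the choice of the transcripts, because most of them passed the CPM minimum through their Dorsal libraries alone. Of the 74, 52 exceeded 1 CPM in at least 2 Dorsal but fewer than 2 Ventral libraries, and 45 of these were called dorsal-enriched; among all tested genes with that pattern 69.4% were. Only 4 passed through the Ventral libraries alone, of which 1 was called ventral-enriched, and 4 passed through no single group. The 14 that passed in both groups did not have to differ. Of these, 5 were called dorsal-enriched (Gm42664, Gm38190, Gm43462, Gm46409 and Gm43061) and none ventral-enriched by edgeR or DESeq2 or lower at an unadjusted p below 0.05, against 10% and 9.14% of the 13827 tested genes above the minimum in both groups. When the minimum was instead a mean of 1 CPM over all 10 libraries, 38 transcripts remained. Of these 38, 26 were called dorsal-enriched, against 13.6% of all genes so filtered. That count is also partly built in, because high Dorsal values alone can lift such a mean above the minimum. A530041M06Rik, for example, averaged 3.28 CPM over all 10 libraries with a Ventral mean of only 0.0194 CPM.

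Most calls did not stand without the libraries that lay between the others. Without replicates 4 and 5 of both groups, 2 transcripts remained dorsal-enriched, Gm42664 and Gm38190, against 0.452% of all tested genes, and the median log2 fold change was 2.90. Without replicates 1 and 2, 50 were dorsal-enriched and 2 ventral-enriched, against 18.7% dorsal-enriched over all genes. With all 10 libraries, the dorsal-enriched transcripts numbered 44 by DESeq2, 46 with offsets for GC content and length and 40 with the dispersions of edgeR 3, against 14.8%, 13.9% and 13.2% of all tested genes.

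The single ventral-enriched transcript was Gm47664, named after its values were seen, in intron 21 of Elmo1, a gene for a partner of Dock proteins in Rac activation. It was at 0.988, 1.09, 0, 0.656 and 0.399 CPM in Dorsal 1 to 5 and at 0, 1.98, 13.6, 3.88 and 7.09 CPM in Ventral 1 to 5. Ventral 3 was highest and Ventral 1 had no count, so that the groups overlapped despite the log2 fold change of -3.01 ± 0.88 (adjusted p = 0.0157). Elmo1 had a log2 fold change of -0.29 ± 0.15 (adjusted p = 0.144).

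The non-overlapping transcripts with the largest dorsal difference were nearly without counts in the Ventral libraries, with 1 to 4 counts each over all 5 libraries, and a ratio of summed counts per depth therefore has a wide counting interval. A530041M06Rik, in the first intron of Lrig2, which encodes a membrane protein with leucine-rich repeats, was at 14.5, 1.35, 0.58, 10.8 and 5.42 CPM in Dorsal 1 to 5, and at 0, 0, 0, 0 and 0.0971 CPM in Ventral libraries. The ratio was 247 (95% counting interval 68.1 to 2050; adjusted p = 0.00719). The Dorsal values differed by more than an order of magnitude among themselves, with Dorsal 1 highest and Dorsal 3 lowest.

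Gm10855, in intron 9 of Celf2, an RNA-binding regulator of splicing, was at 0.0898, 3.74, 4.14, 2.56 and 3.43 CPM in Dorsal libraries and had 1 Ventral count, in Ventral 2 (ratio 227, 40.3 to 9020; adjusted p = 0.00241). Here Dorsal 1 was the lowest library, close to the Ventral level. Gm42702, in the first intron of Magi3, a scaffold protein of cell junctions, was at 0.0898, 0.193, 4.57, 3.58 and 3.11 CPM and had 1 count in Ventral 5 (ratio 187, 33.0 to 7420; adjusted p = 0.011). Its signal rested on Dorsal 3, 4 and 5.

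Gm13380, in intron 3 of Arhgap21, a GTPase-activating protein, was at 0.18, 0.515, 4.14, 1.25 and 2.15 CPM in Dorsal libraries with 1 Ventral count (ratio 129, 22.8 to 5150; adjusted p = 0.0106). Gm43166, in intron 2 of Galnt17, a glycosyltransferase-family gene of neurons, was at 4.40, 5.02, 2.68, 3.64 and 2.71 CPM in Dorsal and at 0, 0.258, 0, 0 and 0.0486 CPM in the Ventral libraries (log2 fold change 5.96 ± 0.76, adjusted p = 0.000217). Gm43166 was the steadiest of the 5 across Dorsal libraries, and Gm13380 was highest in Dorsal 3 and lowest in Dorsal 1.

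In 3 further transcripts no Ventral library had a count, namely Gm43773 in Snx27, 4930404K13Rik in Hs6st3 and Gm15521 in Ntm. Against a floor of 3 counts over the 5 Ventral libraries together they were at least 42.4-fold, 31.9-fold and 16.1-fold higher in Dorsal libraries. Each of them also lacked a count in at least 1 Dorsal library, so that the groups overlapped at 0. Gm43773 was at 0, 0.193, 5.01, 1.13 and 1.75 CPM and 4930404K13Rik at 4.31, 0, 0, 1.67 and 0.718 CPM in Dorsal 1 to 5. Both of the transcripts nearest the CPM minimum were called dorsal-enriched: the second-highest library had 1.013 CPM in Gm15521 and 1.073 CPM in Gm17193, which lies in Arel1. Just outside the minimum were Gm38348, in Frmd4a, with a second-highest value of 0.954 CPM and 4930405O22Rik, in Fbxl17, with 0.943 CPM. Without Dorsal 4 the adjusted p of Gm15521 was 0.0837, and without Ventral 5 that of Gm17193 was 0.0519.

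The host genes had log2 fold changes near 0. Of the 56 hosts that passed the CPM minimum, 5 (8.93%) were dorsal-enriched and 1 (1.79%) ventral-enriched, against 11.4% and 10.3% of tested protein-coding genes. Their median log2 fold change was -0.02, with 27 above and 29 below 0, and 46 of the 56 lay within 0.58 of 0. With offsets for GC content and length 2 hosts were dorsal-enriched and 5 ventral-enriched, with the share outside genes as a covariate 1 and 0, and without replicates 4 and 5 none was called in either direction. The dorsal count was 3 without Dorsal 3 and also without Ventral 2, and the ventral count ranged from 0 to 3 when single libraries were left out. The dorsal-enriched hosts were Tmem161b (1.21 ± 0.29), Gpr137c (0.99 ± 0.16), the kinase-anchoring protein gene Akap9 (0.71 ± 0.09), Tmem131 (0.63 ± 0.16) and Nlgn1 (0.61 ± 0.11), which encodes a postsynaptic adhesion protein. Of the 50 dorsal-enriched transcripts, 4 had a dorsal-enriched host, 42 an uncalled host, 1 a ventral-enriched host and 3 no tested host. Over the 69 transcripts with a tested host, the log2 fold changes of transcript and host had a Pearson's r of 0.196 and a Spearman's rho of 0.164, given as a description across genes that share the same 10 libraries.

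The one opposed pair was Gm44699 in Actn4, the gene for the actin cross-linker alpha-actinin 4. Gm44699 was at 2.24, 0.451, 0.871, 1.91 and 1.28 CPM in Dorsal and at 0.0534, 0.0861, 0, 0.132 and 0.0971 CPM in the Ventral libraries, without overlap (log2 fold change 3.96 ± 0.81, adjusted p = 0.00255). Actn4 was at 11.1, 18.7, 22.5, 19.7 and 20.3 CPM in Dorsal and at 20.3, 33.1, 27.6, 28.4 and 31.2 CPM in Ventral libraries (-0.60 ± 0.18, adjusted p = 0.0196). The Actn4 groups overlapped, Dorsal 3 being above Ventral 1, and without Ventral 5 its adjusted p was 0.0538.

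The transcript was then compared with its own host within each library, so that a difference in the host enters with the opposite sign. The measure was the log2 CPM of the transcript minus that of the host, tested with limma over all 591 noncoding genes nested in the same way in a tested host. Of the 69 pairs formed by the sense-intronic transcripts, 36 (52.2%) were higher relative to the host in Dorsal libraries at an adjusted p below 0.05, and none was lower, also at an unadjusted p below 0.05 (2 were lower at the adjusted threshold without replicates 1 and 2, and 1 without Ventral 1). Over all 591 nested pairs 59.6% were higher and 1.52% lower, so that the share in sense-intronic pairs was close to that of nested noncoding genes in general. The difference was positive in 64 of the 69 pairs with a median of 2.44, against 2.89 over all nested pairs. These pair counts are also partly built in, because 52 of the 74 transcripts passed the CPM minimum through Dorsal libraries alone. Of the 13 with a tested host that passed in both groups, only Gm42664, Gm38190, Gm43462 and B930095G15Rik were among the higher pairs. Without replicates 4 and 5, 2 of the 69 and 3.72% of the 591 pairs were higher, and without replicates 1 and 2, 44 and 65.1%.

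Among the 5 largest pair differences were those of A530041M06Rik and Lrig2 (6.14 ± 1.002, SE on the log2 scale, adjusted p = 0.00038), Gm43166 and Galnt17 (5.30 ± 0.80, adjusted p = 0.000244), Gm10855 and Celf2 (4.83 ± 1.01, adjusted p = 0.00161) and Gm42702 and Magi3 (4.68 ± 1.05, adjusted p = 0.00239). Of the hosts of these pairs, Celf2 was at 1280 ± 79.2 CPM in the Dorsal and 889 ± 61.8 CPM in the Ventral libraries (log2 fold change 0.51 ± 0.09, adjusted p = 0.00138) and Galnt17 at 66.1 ± 9.08 and 45.2 ± 10.1 CPM (0.53 ± 0.15, adjusted p = 0.0138). Both stayed under the fold threshold, which Galnt17 passed without Ventral 5 (0.65, adjusted p = 0.00869). B930095G15Rik passed in this test as well, at 0.90 ± 0.34 relative to Farp1 (adjusted p = 0.0333), though its own level did not pass. Its log2 fold change of 0.41 and that of Farp1, -0.41 (edgeR adjusted p = 0.107 and 0.194), both enter that difference. Peg13 relative to Trappc9 differed by 0.14 ± 0.16 (adjusted p = 0.446).

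Per kilobase of exon, the transcripts stood far below their hosts, with a median of 6.54% of the host level over all libraries. The median was 8.82% in Dorsal and 1.20% in Ventral libraries, a difference partly fixed by the 52 transcripts that passed the CPM minimum through Dorsal libraries alone. For the 13 with a tested host among the 14 that passed in both groups, the medians were 31.4% and 13.0%. Gm42664 was at 36.3% of the Ptbp2 level per kilobase in Dorsal and 4.55% in Ventral libraries, Gm38190 at 17.0% and 0.929% of Tiprl, and A530041M06Rik at 72.6% and 0.264% of Lrig2. Abundance of transcript and host per kilobase showed little order across the 69 pairs (Spearman's rho 0.0228, a description).

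**Figure D3:**
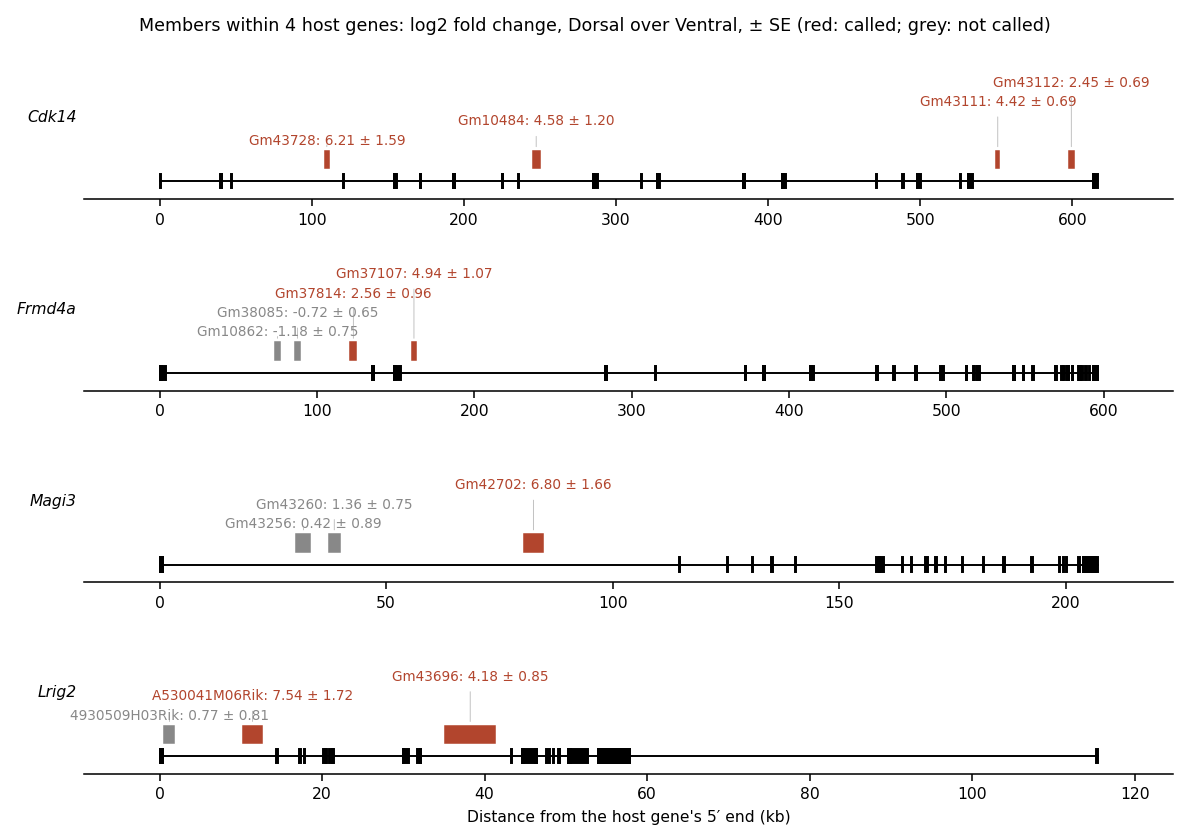
Position of 14 sense-intronic transcripts in the 4 host genes that hold 3 or more (x axis, distance from the 5′ end of the host in kb; black boxes are annotated host exons, merged from all its transcripts and drawn with a minimum width). The labels give the log2 fold change of Dorsal over Ventral ± SE, red for dorsal-enriched and grey for uncalled transcripts; all 4 transcripts of Cdk14 were dorsal-enriched, 2 of 4 in Frmd4a, 1 of 3 in Magi3 and 2 of 3 in Lrig2.

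There were 7 hosts with more than 1 of the transcripts, which allows transcripts of the same gene to be compared. Cdk14, a cyclin-dependent kinase gene expressed at 466 ± 50.7 CPM in the Dorsal and 501 ± 23.2 CPM in the Ventral libraries, holds Gm43728 in intron 3, Gm10484 in intron 10 and Gm43111 and Gm43112 in intron 20. All 4 were dorsal-enriched, with log2 fold changes of 6.21 ± 1.59, 4.58 ± 1.20, 4.42 ± 0.69 and 2.45 ± 0.69. Dorsal 3 was the highest library in each, at 6.67, 2.03, 4.28 and 4.35 CPM, and Dorsal 1, at 0, 0, 0.988 and 0.269 CPM, was among the 2 lowest. Cdk14 itself was lowest in Dorsal 3 among the Dorsal libraries (415 CPM) and highest in Dorsal 1 (550 CPM).

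Frmd4a, which encodes a FERM-domain scaffold of cell polarity, holds Gm10862, Gm38085 and Gm37814 in intron 2 and Gm37107 in intron 4. In the 5′ to 3′ order of the gene the log2 fold changes were -1.18 ± 0.75, -0.72 ± 0.65, 2.56 ± 0.96 and 4.94 ± 1.07, of which the last 2 were dorsal-enriched. Gm10862 was at 2.92, 1.58 and 2.04 CPM in Ventral 3, 4 and 5 and had no count in Ventral 1 and 2. Gm37107 reached 5.95 CPM in Dorsal 3 and had no count in Dorsal 1. The call of Gm37814 was marginal (adjusted p = 0.0467; 0.127 without Dorsal 3), and 5.74% of its length overlapped exons of another gene.

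In Magi3, Gm43256, Gm43260 and Gm42702 lie in the first intron, and only the last, farthest from the start, was called dorsal-enriched; the other log2 fold changes were 0.42 ± 0.89 and 1.36 ± 0.75. In Lrig2, 4930509H03Rik and A530041M06Rik share the first intron and Gm43696 lies in intron 11, and the log2 fold changes were 0.77 ± 0.81, 7.54 ± 1.72 and 4.18 ± 0.85. Dorsal 2 was the highest library for Gm43696, at 7.34 CPM against 1.12 to 1.74 CPM in the other Dorsal libraries, while Dorsal 1 was highest for A530041M06Rik. Transcripts of one gene peaked in different libraries in Lrig2, Magi3, Frmd4a and Man1a2. In Cdk14, Celf2 and Ngly1, by contrast, all of them were highest in Dorsal 3.

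The other hosts hold 2 each. In Celf2, Gm10855 and Gm10115 lie in intron 9 and were both dorsal-enriched, Gm10115 at 0.845 ± 0.619 CPM in the Dorsal and 0.0345 ± 0.0494 CPM in the Ventral libraries, with 34.4% of its length shared with exons of another gene. In Man1a2, a Golgi mannosidase gene, Gm42869 and Gm43462 are neighbours in intron 6 and had log2 fold changes of 3.09 ± 0.76 and 2.34 ± 0.58, both dorsal-enriched. In Ngly1, which encodes a cytosolic glycan-removing enzyme, Gm47798 in intron 9 was dorsal-enriched (3.94 ± 0.66, adjusted p = 0.000407). 5430414B19Rik in intron 4 of the same gene did not pass (1.49 ± 0.63, adjusted p = 0.0817), with 11.7, 5.60 and 6.62 CPM in Dorsal 3, 4 and 5 but 0.808 and 0.966 CPM in Dorsal 1 and 2.

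Features of the annotation that the counts did not define can be set side by side for dorsal-enriched and uncalled transcripts. The host intron of the 50 dorsal-enriched transcripts had a median length of 30400 bp and that of the 23 uncalled transcripts 9560 bp. A hexamer near the annotated end was present in 14 of the 50 (28.0%) and in 9 of the 23 (39.1%), and a single exon block in 30 and 15. The median GC content was 40.1% and 42.7%. These are descriptions of 2 lists defined by the outcome, and no test was made.

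**Figure D4:**
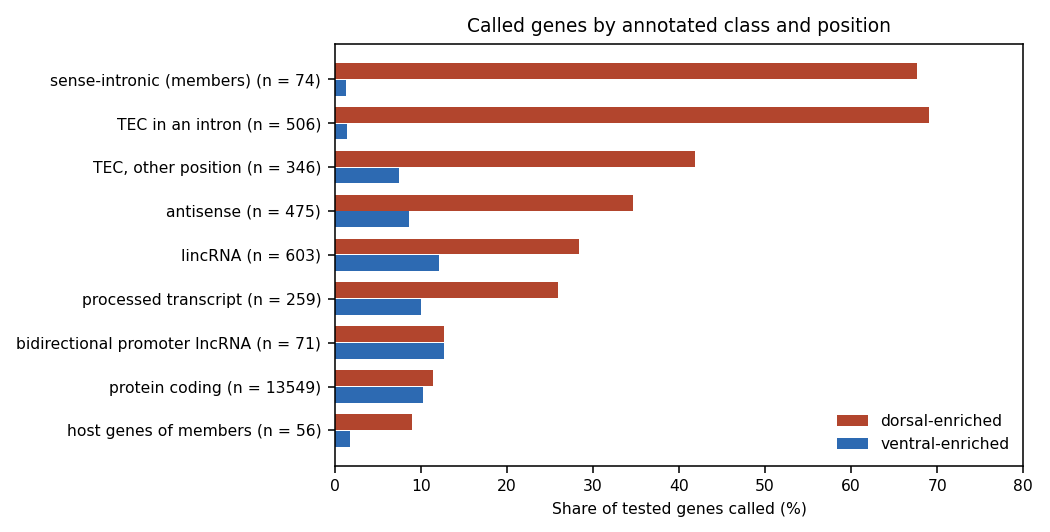
Share of tested genes (x axis, %) called dorsal-enriched (red) or ventral-enriched (blue) by annotated class, with the host genes of the sense-intronic transcripts last and the number tested in brackets. Sense-intronic transcripts and TEC genes in an intron had similar dorsal shares (67.6% and 69.0%), and host genes and protein-coding genes the lowest (8.93% and 11.4%).

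High dorsal shares were also found in other noncoding classes. TEC is a provisional class of mostly single-exon models, and 506 tested TEC genes lay within an intron of a protein-coding gene on its strand by the same rule. Dorsal enrichment was called in 349 of them (69.0%) and ventral enrichment in 7 (1.38%), and the median log2 fold change was 3.22. Among the 346 TEC genes in other positions 41.9% were dorsal-enriched, with a median of 1.01. Antisense genes stood at 34.7%, lincRNAs at 28.4% and processed transcripts at 25.9%, while bidirectional promoter lncRNAs had 12.7% in each direction. All of these classes passed the same CPM minimum, and 25.1% of all tested genes with a mean under 5 CPM were dorsal-enriched, against 48 of the 68 sense-intronic transcripts at that level (70.6%).

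**Figure D5:**
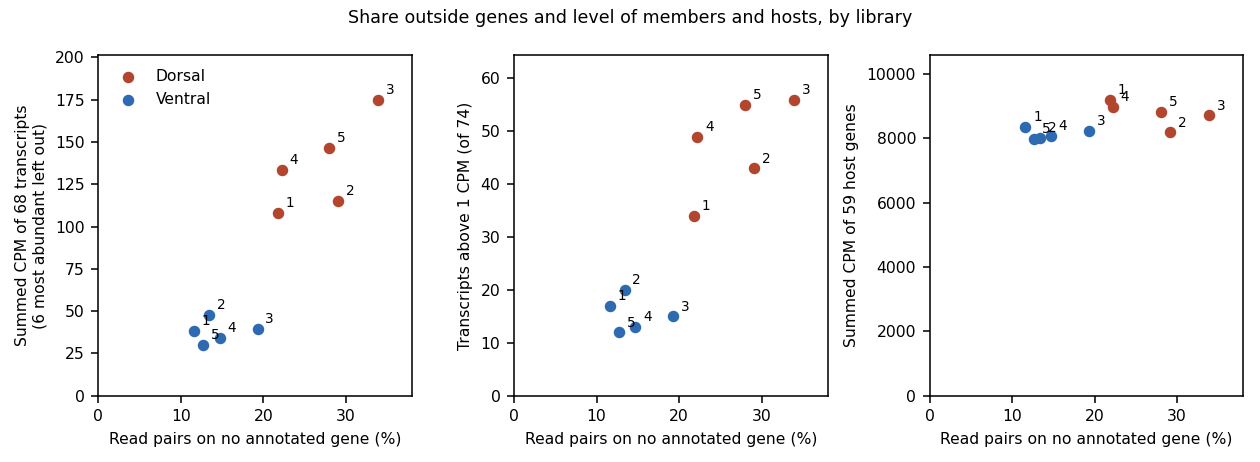
For each library (red Dorsal, blue Ventral, digits are replicate numbers), the share of read pairs on no annotated gene (x axis, %) against the summed CPM of 68 sense-intronic transcripts without the 6 most abundant, the number of the 74 above 1 CPM, and the summed CPM of the 59 host genes (y axes from 0). The summed transcripts ranged from 108 to 175 CPM in Dorsal and from 30.3 to 47.8 CPM in Ventral libraries, while the hosts ranged from 7970 to 9195 CPM over all 10. The sum and the number above 1 CPM are partly built in, because 52 of the 74 passed the minimum through Dorsal libraries alone.

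Read pairs outside genes moved with the transcripts. The share on no annotated gene was 21.8, 29.1, 33.9, 22.2 and 28.0% in Dorsal 1 to 5 and 11.6, 13.4, 19.3, 14.7 and 12.7% in Ventral 1 to 5. Without the 6 most abundant, the transcripts summed to 108, 115, 175, 133 and 146 CPM in Dorsal and to 38.5, 47.8, 39.3, 34.1 and 30.3 CPM in Ventral libraries. Dorsal 3 was highest and Dorsal 1 lowest on both measures among the Dorsal libraries, and Ventral 3, with the highest share of its group, did not have the highest sum. The number above 1 CPM was 34 to 56 in Dorsal and 12 to 20 in Ventral libraries. The sums and these numbers are partly built in, because 52 of the 74 transcripts passed the CPM minimum through Dorsal libraries alone. The 247 sense-intronic genes that did not pass the minimum summed to 23.3, 82.7, 37.4, 26.0 and 75.3 CPM in Dorsal and to 10.8, 11.8, 20.8, 16.6 and 15.2 CPM in Ventral libraries, again without overlap. With the share outside genes as a covariate in the edgeR fit, 15 of the 74 were dorsal-enriched and 1 ventral-enriched, against 4.96% of all tested genes dorsal-enriched. Gm42664, Gm38190, A530041M06Rik, Gm43166 and Gm44699 were among the 15 (adjusted p = 0.0121, 8.53e-05, 0.000341, 0.00606 and 0.00468), and Gm10855, Gm42702 and Gm13380 were not (0.114, 0.214 and 0.362). The covariate and the groups do not overlap, so that they cannot be told apart.

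Several RNAs known to be kept in the nucleus were also dorsal-enriched. Of 12 listed, 7 were dorsal-enriched by edgeR, against 15.7% of all tested genes. None was ventral-enriched, against 9.85% of all tested genes, or lower at an unadjusted p below 0.05. Their summed level, most of it Malat1, was 15050 to 27780 CPM in Dorsal and 2831 to 5663 CPM in Ventral libraries. Malat1, an abundant RNA of nuclear speckles, was at 14700 ± 4750 CPM in the Dorsal and 2570 ± 728 CPM in the Ventral libraries (log2 fold change 2.51 ± 0.22, adjusted p = 1.03e-05). Meg3, an imprinted noncoding RNA, was at 1800 ± 720 and 497 ± 246 CPM (1.84 ± 0.33, adjusted p = 0.00133), whereas Rian, of the same imprinted region, was at 228 ± 35.0 and 190 ± 38.3 CPM (0.25 ± 0.15, adjusted p = 0.203). Peg13 belongs to that list as well as to the sense-intronic transcripts.

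Markers of other cells also differed between the groups, where 15.7% of all tested genes were dorsal-enriched and 9.85% ventral-enriched. The 4 oligodendrocyte markers, with Mbp the most abundant, summed to 329 to 545 CPM in Dorsal and 163 to 350 CPM in the Ventral libraries, and 2 of the 4, Mbp and Mobp, were dorsal-enriched. The 8 interneuron markers, with Gad2 the most abundant, summed to 3288 to 4163 and 3992 to 4993 CPM, with 3 ventral-enriched. The 4 dentate granule cell markers summed to 362 to 474 and 351 to 483 CPM with 1 called in each direction, and the 8 mossy cell markers to 1978 to 2158 and 2008 to 2190 CPM with 3 dorsal-enriched and 2 ventral-enriched. The mossy cell sums were similar because markers higher in Dorsal, mainly Gria2, were offset by Calb2 and Satb1, higher in Ventral libraries. Of the 4 astrocyte markers 2 were dorsal-enriched and 1 ventral-enriched (144 to 200 and 42.0 to 158 CPM), and of the 5 CA pyramidal cell (98.1 to 210 and 122 to 179 CPM), 4 microglial (18.3 to 22.6 and 11.6 to 23.6 CPM) and 3 endothelial markers (3.86 to 29.9 and 5.94 to 37.9 CPM) none was called by edgeR, with 1, 1 and 0 higher in Dorsal libraries at an unadjusted p below 0.05. The part of the nuclear RNAs and of these cell types in the level of the sense-intronic transcripts was not tested.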

How the data were processed

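Ribosome-bound RNA of 5 Dorsal and 5 Ventral pools was sequenced as 50 bp paired ends. The authors made cDNA with the Ovation RNAseq V2 kit, prepared TruSeq libraries, aligned reads to GRCm38 with STAR 2.5.2b and assigned them to Ensembl genes with HTSeq 0.7.2; the deposited values are these raw counts. The annotation release and the strand setting of the counting are not given in the sources used here. Neither kit marks strand, so that reads of an intronic transcript cannot be told from antisense RNA. Unspliced host RNA, which is on the same strand, could not be told apart by strand either. The 5 rows for read pairs outside genes stayed out of library sizes.

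Biotypes and coordinates came from GENCODE M21, which matched 54809 of 54838 gene identifiers. A host was a protein-coding gene on the same strand whose span held the transcript and whose exons did not touch it, the shortest span being taken. Introns of a host are the gaps between its exons merged over all annotated transcripts. Their numbers and lengths can therefore differ from those of a single transcript. Counts were tested in edgeR 4.0.16 (R 4.3.3; TMM; quasi-likelihood; genes above 1 CPM in at least 2 libraries; Benjamini-Hochberg adjustment over 16806 genes). Standard errors are the log2 fold change over the square root of F. Pairs were tested with limma 3.58.1 on log2 CPM with a prior of 0.5 counts. Both tests were tested on simulated data. Alternatives were other scaling factors, tests (DESeq2 1.42.0), filters, covariates and omitted libraries.

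The transcripts and lists were chosen with earlier results of these data known. Named are the 6 highest in mean CPM, the 6 per direction with the largest change among called transcripts without overlap, those opposed to their host, those sharing a host, the 5 largest pair differences per direction, and those next to the CPM minimum; one host with its transcript and one marker gene are not reported here. Same-numbered libraries of the 2 groups did not deviate together (correlations -0.0324 to 0.067), so that the numbers were not taken as pairs. The test treats the groups as independent although both appear to come from the same mice, and p-values measure the spread between these libraries.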

Additional observations from a re-analysis of the deposited data

Results flagged for a closer look

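In 12 of the named transcripts 1 library stood apart from the other 4 of its group, its gap to the nearest of them being more than 0.710 of the group's range. In all, 65 such groups were looked at. Chance flags about 1 in 20 where values are normally distributed, a rate that does not hold for groups that are mostly 0. In 4 transcripts the flag is a Ventral library that alone had counts, namely A530041M06Rik in Ventral 5 (0.0971 CPM), Gm10855 in Ventral 2 (0.0861 CPM), Gm42702 in Ventral 5 (0.0486 CPM) and Gm13380 in Ventral 2 (0.0861 CPM), and the same held for Gm10484 in Ventral 4 (0.197 CPM); all of these are 1 to 3 counts.

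Ventral 2 also stood apart for Gm42664, which had 0 CPM there and 3.15 to 3.74 CPM in the other Ventral libraries, for Gm43166 (0.258 CPM against 0 to 0.0486 CPM), for 4930509H03Rik (1.55 CPM against 0.0971 to 0.32 CPM) and for 5430414B19Rik (4.73 CPM against 0.874 to 1.76 CPM). Peg13 was lowest in Ventral 3, at 116 CPM against 159 to 174 CPM, and without that library its log2 fold change was -0.046. Gm43256 was highest in Ventral 1, at 1.17 CPM against 0 to 0.329 CPM. Among Dorsal libraries, Gm43696 in Lrig2 was at 7.34 CPM in Dorsal 2 against 1.12 to 1.74 CPM in the others.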

How the results depend on the processing

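The count of dorsal-enriched sense-intronic transcripts, 50, was 44 with DESeq2, 46 with offsets for GC content and length and 40 with the dispersions of edgeR 3, an alternative added after the data were seen, as were the omissions of 2 replicates. It moved to 26 of 38 when the mean CPM had to exceed 1, which tests fewer genes, to 15 with the share outside genes as a covariate and to 2 without replicates 4 and 5; the cause was not tested. Leaving out single libraries gave 35 (without Ventral 5) to 50 dorsal-enriched and 1 ventral-enriched transcript. The ventral-enriched transcripts were 0 without replicates 4 and 5 and 2 without replicates 1 and 2. Dorsal-enriched hosts, 5, were 1 with the covariate, 2 with GC and length offsets (with or without the replicate block), 11 by adjusted p alone and 0 without replicates 4 and 5; single omissions gave 3 to 7. Ventral-enriched hosts, 1, were 0 with DESeq2 size factors, with TMM on protein-coding genes, with the covariate and without replicates 4 and 5, 5 with GC and length offsets (with or without the block), 3 with edgeR's own fold change, 4 by adjusted p alone and 4 without replicates 1 and 2; single omissions gave 0 to 3. Pairs higher in Dorsal, 36, were 19 of 36 with the mean filter and 2 without replicates 4 and 5, and single omissions gave 29 to 38. Pairs lower, 0, were 2 without replicates 1 and 2 and 0 to 1 in single omissions.

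The replicate number as a block gave 48 dorsal-enriched transcripts, 40 together with GC and length offsets, and 34 higher pairs; among the named genes only Gm37814 lost its call (adjusted p = 0.0507). Whether same-numbered libraries share mice is not given, and only replicate 1 correlated best with its own number.

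The log2 fold changes that reversed had not passed the test with all libraries and lay between -0.720 (Gm38085) and 1.362 (Gm43260), and none passed it after the reversal. With the block Frmd4a was at 0.033. With the covariate Gm42829 was at -0.982, Gm38085 at 0.565, Uchl5 at 0.223, Tiprl at 0.094, Lrig2 at -0.361, Magi3 and Arhgap21 at -0.025, Cdk14 at 0.181 and Man1a2 at 0.07. With GC and length offsets Gm29170 was at -0.109, Gm43256 at -0.006 and Magi3 at -0.05, and with the block added Gm42829 was at -0.039, Gm29170 at -0.093 and Magi3 at -0.057. Without replicates 4 and 5 Gm43260 was at -0.037 and Trappc9 at 0.129, and without replicates 1 and 2 Gm42829 was at -0.371 and Gm29170 at -0.032. In single omissions Trappc9 ranged from -0.219 to 0.013, Frmd4a from -0.194 to 0.225, Man1a2 from -0.153 to 0.022, Peg13 from -0.046 to 0.076, Gm42829 from -0.189 to 0.274 and Gm29170 from -0.036 to 0.315. Of the results of named genes, fold changes and pair differences together, 24 no longer passed without replicates 4 and 5. Among these were the pair differences of A530041M06Rik, Gm43166, Gm10855 and Gm42702. With the covariate, which was used for fold changes only, 17 no longer passed, and under any single omission at most 4. 5430414B19Rik became dorsal-enriched without Dorsal 1, Dorsal 2 or Ventral 2, without replicates 1 and 2 and with no expression filter (1.478, adjusted p = 0.0141), Gm43260 without Dorsal 2 and without replicates 1 and 2, and Galnt17 without Ventral 5. Ptbp2 (-0.928) and Uchl5 (-0.604) became ventral-enriched with GC and length offsets, as they did with the block added, and Gm10862 without replicates 1 and 2. By adjusted p alone Celf2, Galnt17 and Arel1 were also called. Depth limits the transcripts with few or no Ventral counts, whose fold changes are bounds or have wide intervals.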
